A study of Mus musculus with 4 samples.

Results

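The Tmigd1 and Sez6 high luminal cells were a set of 1337 cells among the 33268 cells of 4 droplet single-cell RNA sequencing libraries of mouse mammary organoids. They were chosen by measured values. A cell had to have 1000 to 6000 detected genes and under 5% of its unique molecular identifiers (UMIs) on mitochondrial genes. It also had to have under 300 CPM (UMIs of a gene per 1000000 UMIs of all genes) of Krt14, a basal keratin, under 300 CPM of Areg, an EGF receptor ligand made by hormone receptor-positive cells, and under 100 CPM of the cell division genes Cenpf, Ccnb2, Cdc20 and Birc5 together. Of the 12698 cells within these limits, the 1337 cells with at least 150 CPM of Tmigd1 and Sez6 together were the members, and the 10384 cells with under 50 CPM, called other luminal cells here, were the comparison cells of the same library. The 977 cells between the thresholds entered neither set. Organoids are small epithelial structures grown in a gel from mammary cells, here from female mice carrying 1 truncated Brca2 allele (Brca2mut/WT) or from their wild-type littermates, and each genotype was left untreated or treated with hydroxyurea (HU), which stalls DNA replication. The 4 libraries, named WT, WT-HU, B2 and B2-HU after genotype and treatment, are therefore 1 per condition, each labelled as holding 2 replicates that the labels do not separate. The organoids were frozen, thawed, cultured again and dissociated before capture, and the passage of a library and the age of the mice behind it were not given in the labels. The paper describes organoids of an early and a late passage, and more mice per condition than the 2 replicates of the labels. How these map to the libraries was not given. The members numbered 229 in WT, 67 in WT-HU, 698 in B2 and 343 in B2-HU.

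Hormone receptor-negative (HR-) luminal cells line the ducts and alveoli of the mammary gland, carry the transcription factor Elf5 and the receptor Kit, and give rise to the milk-making cells of pregnancy. Tmigd1 is an immunoglobulin-domain adhesion protein known from intestinal and kidney epithelium, and Sez6 is a membrane protein best known from neurons. Pipox is a peroxisomal oxidase of pipecolic acid and sarcosine, Fetub a secreted protease inhibitor of the cystatin family made by the liver, and Tspan8 a tetraspanin, a class of membrane proteins that organise other surface proteins. None of these is a classical gene of milk production.

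Promoters of genes that were high together in the members are shown to place the set in the genome. They run from 250 bases before to 50 bases after a RefSeq start on GRCm38.p6. Capitals mark matches to TATAAA, the TATA box letters, or to AGGTGT, the core letters of T-box factors such as Tbx3, on either strand (ACACCT is AGGTGT read on the other strand). The sequences are of Tmigd1 (chr11:76901909-76902208, plus strand), Fetub (chr16:22918132-22918431, plus strand), Pipox (chr11:77893823-77894122, minus strand) and Tspan1, the gene with the largest difference below (chr4:116167549-116167848, minus strand).
Tmigd1: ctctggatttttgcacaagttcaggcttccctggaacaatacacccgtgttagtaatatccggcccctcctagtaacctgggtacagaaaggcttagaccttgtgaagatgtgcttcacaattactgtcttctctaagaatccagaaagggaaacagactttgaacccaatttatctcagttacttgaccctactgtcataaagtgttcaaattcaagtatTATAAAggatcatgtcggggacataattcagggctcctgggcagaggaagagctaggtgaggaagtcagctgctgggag
Fetub: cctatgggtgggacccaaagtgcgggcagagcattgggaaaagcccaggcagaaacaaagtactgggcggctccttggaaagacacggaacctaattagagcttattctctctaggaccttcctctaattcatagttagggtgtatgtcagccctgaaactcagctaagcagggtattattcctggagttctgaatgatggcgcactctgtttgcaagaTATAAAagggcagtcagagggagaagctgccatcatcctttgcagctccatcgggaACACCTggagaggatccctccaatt
Pipox: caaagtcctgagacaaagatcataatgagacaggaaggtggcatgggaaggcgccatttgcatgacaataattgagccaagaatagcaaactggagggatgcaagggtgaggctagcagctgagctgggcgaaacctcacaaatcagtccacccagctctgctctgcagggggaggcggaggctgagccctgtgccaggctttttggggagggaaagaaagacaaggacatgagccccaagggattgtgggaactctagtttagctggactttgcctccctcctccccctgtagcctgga
Tspan1: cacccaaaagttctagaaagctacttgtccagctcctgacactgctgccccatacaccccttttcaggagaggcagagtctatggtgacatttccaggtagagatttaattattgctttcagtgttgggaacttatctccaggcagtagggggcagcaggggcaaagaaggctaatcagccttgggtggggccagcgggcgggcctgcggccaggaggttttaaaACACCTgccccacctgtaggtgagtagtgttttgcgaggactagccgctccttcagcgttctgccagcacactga
The TATAAA match of Tmigd1 begins 29 bases before its start and that of Fetub 31 bases before its start. A TATAAA match was present in 13.6% of the 32851 RefSeq promoters of this length and an AGGTGT match in 13.7%. TTCNNNGAA, the letters of STAT sites (8.30% of all promoters), had no match in these windows. A match is a description of letters and not evidence of binding. Sez6 had no entry among these promoters. The window of the listed marker Tspan8 had no match to any of these letters and is not printed. The start used for Pipox lay 224 bases from the gene start in GENCODE, and that of Tspan8 452 bases.

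The members were not spread evenly within the libraries. Each library also held counts of 4 antibody tags, for which the sources give no key, and a cell that carried 1 tag was placed in the pool of that tag. Tag 2 held most members of the Brca2mut/WT libraries. In B2, 557 of 604 cells within the limits that carried tag 2 were members, 92.2% (95% exact binomial interval 89.8 to 94.2%), and in B2-HU 261 of 312, 83.7% (79.1 to 87.6%). In WT, members were 37.4% of the tag 2 cells (64 of 171) and 32.8% of the tag 4 cells (111 of 338). In WT-HU they were 3.81% of tag 2 cells (20 of 525) and 10.3% of tag 4 cells (22 of 214). Tag 4 of B2 held 3.25% and tag 4 of B2-HU 0.935%, and the share under tags 1 and 3 was between 0.530% and 1.15% in all 4 libraries. Of the 1125 members with 1 tag, 93.2% carried tag 2 or 4 and 72.7% carried tag 2 of B2 or B2-HU. Members and comparison cells of a library thus mostly came from different pools, and what a tag stands for was not given. Differences were therefore fitted also within pools, for genes with enough counts there. That fit used the 6 pools that held at least 20 members and 20 other luminal cells (tags 2 and 4 of WT and WT-HU, and tag 2 of B2 and B2-HU). The other luminal cells numbered only 25 in tag 2 of B2 and 29 in tag 2 of B2-HU, against 557 and 261 members. They numbered 77 and 193 in tags 2 and 4 of WT and 473 and 159 in those of WT-HU. Between libraries, 129 cell barcodes occurred in 2 libraries and 33010 in 1.

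**Figure D1:**
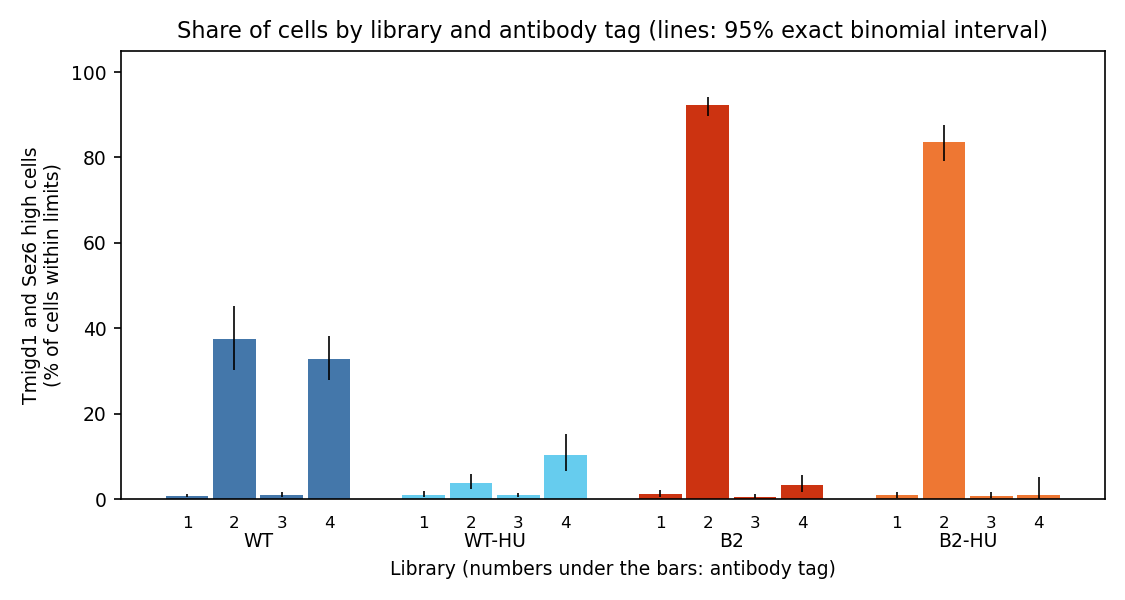
Share of Tmigd1 and Sez6 high cells among cells within the limits (vertical axis, %) in each library, for cells with 1 antibody tag (tags 1 to 4 under the bars), with 95% exact binomial intervals, which cover counting error only. Tag 2 of B2 and B2-HU stands at 92.2% and 83.7%, tags 2 and 4 of WT at 37.4% and 32.8%, and tags 1 and 3 at no more than 1.15%.

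Over all cells within the limits, the members made up 5.98% in WT (95% exact binomial interval 5.25 to 6.78%), 2.12% in WT-HU (1.64 to 2.68%), 21.6% in B2 (20.2 to 23.05%) and 13.9% in B2-HU (12.5 to 15.3%). With 1 library per condition there is no test between conditions, and the intervals cover counting error only. Without the tag 2 cells the share was 4.51% in WT, 1.78% in WT-HU, 5.36% in B2 and 3.80% in B2-HU, which keeps cells without a single tag. Among cells with 1 tag other than tag 2 it was 4.04% in WT (137 of 3393), 1.73% in WT-HU (42 of 2424), 1.23% in B2 (28 of 2270) and 0.850% in B2-HU (16 of 1882), so the order of the libraries depended on which cells were kept. Genotype and treatment cannot be told apart from the makeup of the pools.

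The choice limits removed many cells with Tmigd1 and Sez6. The limit of 6000 genes took out 49.0% of the cells with at least 150 CPM of the pair in WT (220 of 449), 29.5% in WT-HU (28 of 95), 38.7% in B2 (440 of 1138) and 61.4% in B2-HU (545 of 888). For cells under 50 CPM the same limit took out 15.7%, 17.4%, 18.9% and 25.3%. The limit on cell division genes removed 22.6% of the high cells in WT (95% exact binomial interval 17.99 to 27.8%), 14.1% in WT-HU (7.26 to 23.8%), 12.9% in B2 (10.6 to 15.4%) and 19.1% in B2-HU (15.5 to 23.2%), and of the low cells 7.58%, 8.49%, 9.24% and 8.50%. Cells with many genes can hold RNA of more than 1 cell, and no doublet caller was used.

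Among themselves the members varied in which of the pair they carried. UMIs of both genes were found in 1020 members (76.3%), Tmigd1 alone in 159 and Sez6 alone in 158. The median member had 14 UMIs of the pair among 26892 UMIs in all, or 549 CPM, with quartiles of 327 and 838 CPM. The median was 356 CPM in WT, 252 in WT-HU, 676 in B2 and 530.4 in B2-HU. The balance of the pair differed between libraries and between pools of a library. The median Tmigd1 level was 78.0 CPM in WT and 53.6 in WT-HU against 442 in B2 and 214 in B2-HU, and that of Sez6 was 248, 197, 198 and 292 CPM, so Tmigd1 was above Sez6 in B2 and below it in the other libraries. In summed counts of the 6 pools with at least 20 members, Tmigd1 and Sez6 were at 219 and 245 CPM in tag 2 and 113 and 321 CPM in tag 4 of WT, at 111.5 and 178 CPM in tag 2 and 124.8 and 150.3 CPM in tag 4 of WT-HU, at 539 and 249.7 CPM in tag 2 of B2 and at 301 and 376 CPM in tag 2 of B2-HU. Sez6 alone was found in 21.8% of WT and 35.8% of WT-HU members but in 5.44% of B2 and 13.4% of B2-HU members. The choice used these levels, which are a description with no test. In 156 members (11.7%) the threshold was met with under 3 UMIs of the pair. These cells had a median of 3894 UMIs.

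The members just inside the threshold resembled the cells just outside it in part. The 51 members within 25 CPM above 150 CPM had 201 CPM of Pipox, 52.1 of Fetub and 277 of Tspan8. The 88 cells within 25 CPM below it had 104, 71.2 and 185 CPM. In cells of all libraries the levels of Pipox and Tspan1 went with the level of the pair across the whole range, as a description. Pipox was listed as a marker from these data, and Tspan1 was picked for its difference between members and other luminal cells. Their difference across the threshold therefore followed from how they were picked. Pipox was at 17.5 CPM in the 8714 cells with no UMI of the pair, 27.6 in the 1670 cells above 0 to 50 CPM, 57.9 in the 977 cells at 50 to 150 CPM, 225 at 150 to 300 CPM and 292 in the 602 cells at 600 CPM and above. Tspan1 went from 11.8 to 22.1, 73.5, 340.3 and 570.5 CPM over the same steps. Lalba, the milk sugar synthase subunit, was at 523, 553, 421, 131 and 60.7 CPM, so it was lower from 50 CPM upwards but not between the lowest steps. The libraries fill the steps unequally, since 407 of the 602 cells at the top were from B2 and 2 from WT-HU.

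**Figure D2:**
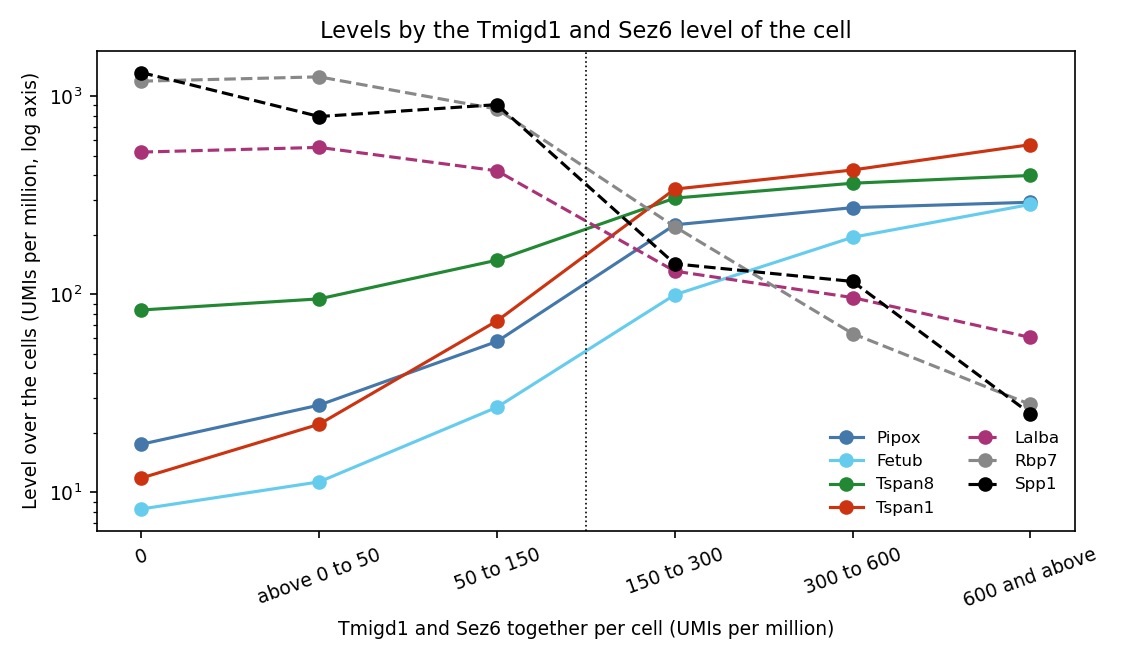
Level of 7 genes (vertical axis, CPM, log axis) over cells within the limits, by the summed level of Tmigd1 and Sez6 in the cell (horizontal axis, CPM), with the threshold of 150 as a dotted line. Pipox, Fetub, Tspan8 and Tspan1 (solid) are higher in the cells to the right and Lalba, Rbp7 and Spp1 (dashed) lower, with Tspan1 at 11.8 in the cells without the pair and 570.5 in those at 600 and above.

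The label of luminal cells was checked against markers. Epcam, the surface molecule of epithelium, was at 1782 CPM in WT members, 1638 in WT-HU, 2198 in B2 and 1750.2 in B2-HU, and at 1475 to 1757 CPM in other luminal cells. Krt8 and Krt18, the keratins of luminal cells, were at 853 to 1157 and 1536 to 2349 CPM in members. Elf5 was at 56.4, 85.5, 92.6 and 96.3 CPM in members and 99.9 to 126 CPM in other luminal cells. Kit was at 51.7 to 130 CPM in members. Markers of hormone receptor-positive (HR+) cells were called in both directions, with Pgr, Foxa1 and Fxyd2 higher and Ptn, Ly6a, Cited1 and Esr1 lower of 11 tested. Of all genes tested, 3.53% were called higher and 8.67% lower. Esr1, the estrogen receptor, was at no more than 1.09 CPM in members. Its call as lower (log2 difference -1.26) was lost without B2 (adjusted p = 0.133) and without B2-HU (adjusted p = 0.164). Of 12 HR- markers tested, 4 (Lalba, Aldh1a3, Mfge8 and Cd14) were called lower, against 8.67% of all genes tested, and none higher, with a median log2 difference of -0.75, and the keratins Krt19 and Krt7 were called lower too. The sum of 13 HR- markers was at 28858, 25324, 21651 and 21588 CPM in members and 27406 to 30978 CPM in other luminal cells, most of it Csn3.

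Tspan8, Fetub and Pipox were listed as markers from these data, so their values are a description. Pipox was at 380.3 CPM in WT members, 151 in WT-HU, 207 in B2 and 342 in B2-HU, against 23.6, 19.6, 15.3 and 17.7 CPM in other luminal cells. All 4 libraries were higher in members and the ranges did not overlap. Fetub was at 74.6, 46.3, 300.1 and 206 CPM in members against 6.82, 7.63, 13.2 and 9.01 CPM, so that it was highest in the Brca2mut/WT libraries. Tspan8 was at 367, 178, 373 and 404 CPM in members against 82.0, 94.1, 72.5 and 94.4 CPM. On the log2 scale these differences were 3.65 ± 0.18 (SE) for Pipox, 3.75 ± 0.27 for Fetub and 1.79 ± 0.19 for Tspan8, and 3.03, 2.37 and 1.46 within pools.

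A UMI of a marker in a cell does not by itself show expression, because free RNA reaches all droplets. In cells thinned to 5000 UMIs, Pipox was found in 71.9% of WT members (156 of 217), 47.5% of WT-HU (29 of 61), 50.7% of B2 (315 of 621) and 70.4% of B2-HU members (214 of 304). In other luminal cells it was found in 9.28%, 6.94%, 5.70% and 7.70%, and in basal cells (at least 300 CPM of Krt14) in 3.88%, 2.25%, 3.35% and 5.44%. Thinning left out 12, 6, 77 and 39 members. Without thinning the shares were 91.3%, 76.1%, 78.7% and 86.9% in members and 14.8%, 6.28%, 10.2% and 16.5% in basal cells, whose median depth was 20250.5, 21116, 18817 and 20186 UMIs against 30715, 30439, 25309 and 28484 in members. Fetub was found after thinning in fewer WT and WT-HU members, 24.9% (54 of 217) and 11.5% (7 of 61). It was found in 64.3% of B2 (399 of 621) and 46.1% of B2-HU members (140 of 304). Tspan8 was found after thinning in 74.7%, 49.2%, 75.2% and 76.0% of members. Without thinning, Tmigd1 was found in 9.22% of WT basal cells and 15.2% of B2 basal cells. Its share in other luminal cells is not set beside these, since those cells were limited to a low level of the pair and the basal cells were not.

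**Figure D3:**
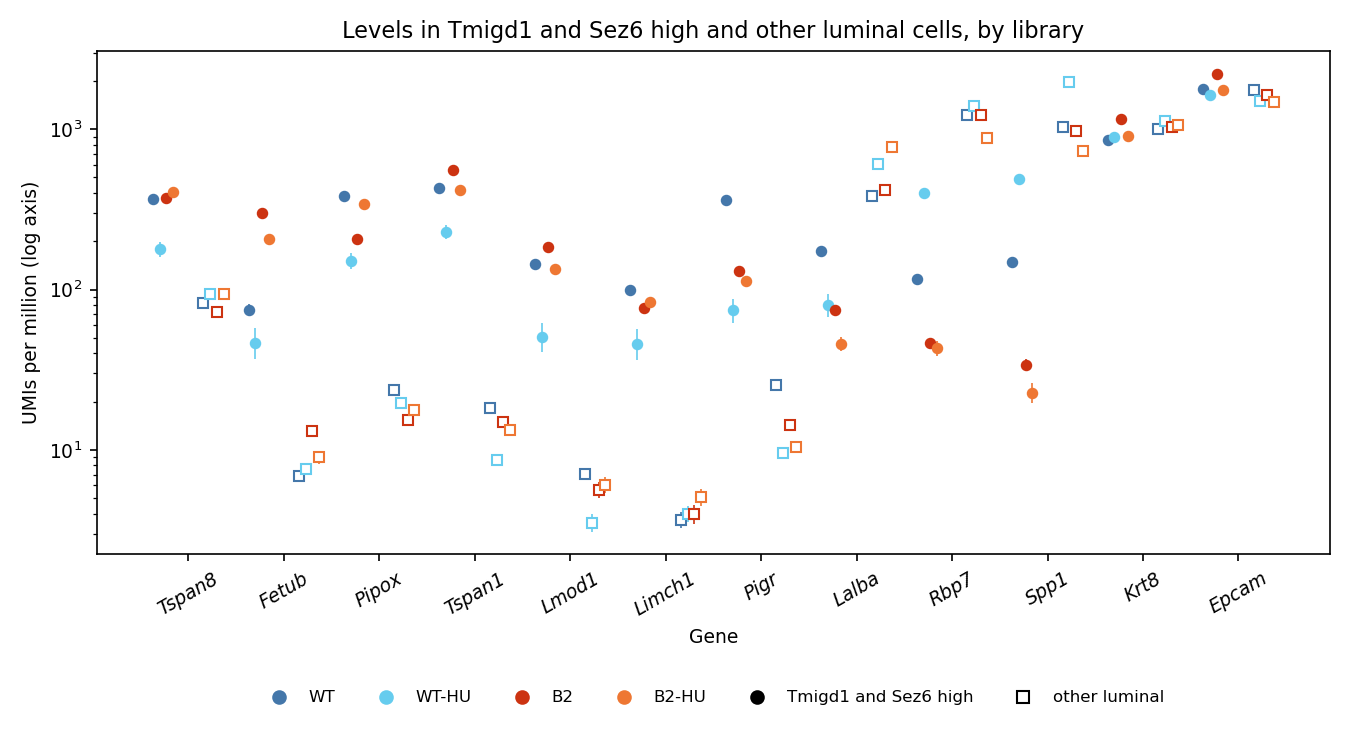
Level (vertical axis, CPM, log axis) of 12 genes in members (filled circles) and other luminal cells (open squares) of each library, with 95% Poisson intervals of the counts. Tspan8, Fetub, Pipox, Tspan1, Lmod1, Limch1 and Pigr are higher in members of all 4 libraries without overlap, Lalba, Rbp7 and Spp1 lower, and Krt8 and Epcam overlap.

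The counts of members and of other luminal cells were summed in each library and compared with edgeR, with the library as a block. The p-values measure the spread of the member-to-other difference over the 4 libraries, which are 4 conditions. A gene was called at a Benjamini-Hochberg adjusted p under 0.05 and a difference of at least 2-fold. Tmigd1 and Sez6, whose direction the choice fixed, were left out of the calls, as were the other genes of the limits, the mitochondrial genes and the 3 markers listed from these data. Of 13932 genes tested, 5183 (37.2%) had an adjusted p under 0.05 at any fold, 492 (3.53%) were called higher in members and 1208 (8.67%) lower. The counts of calls in each gene list below are to be read against these shares. The median log2 difference over all genes tested was 0.00, and 0.12 when library totals replaced TMM scaling. Of the 492 genes, 445 were higher in each of the 4 libraries, and of the 1208, 1114 were lower in each. Within pools 185 genes were called higher and 368 lower of 10118 tested, and the counts of calls within pools below are to be read against these. Adjusted p-values within pools measure the spread over the 6 pools. In WT and in WT-HU, tags 2 and 4 share a library, so the pools are not separate libraries. Of the genes called in the comparison by library that were tested within pools, 144 of 270 higher genes and 271 of 409 lower genes were called again, and 264 and 406 had the same direction. The median log2 difference of those 270 genes was 1.38 by library and 1.09 within pools, and of the 409 genes -1.59 and -1.33.

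Tspan1, a tetraspanin, had the largest difference among the genes called higher. It was at 427 CPM in WT members, 229 in WT-HU, 555 in B2 and 415 in B2-HU and at 18.2, 8.60, 14.9 and 13.2 CPM in other luminal cells, so the groups did not overlap. It rose by 4.75 ± 0.11 on the log2 scale (SE, n = 4 libraries, edgeR adjusted p = 6.54e-08), and within pools by 2.93 ± 0.41 (adjusted p = 0.000258). In the other luminal cells of the 6 pools Tspan1 was at 201 CPM in tag 2 of WT, 152 in tag 2 of B2 and 57.5 in tag 2 of B2-HU, but at 9.97 in tag 2 of WT-HU, 10.6 in tag 4 of WT and 25.6 in tag 4 of WT-HU, where the members of tag 4 were at 321 and 519.5 CPM. Under tag 1 it was at 12.6 CPM in WT, 13.2 in B2 and 14.6 in B2-HU. In the 20 members of WT-HU tag 2 Tspan1 was at 13.0 CPM (95% Poisson interval 5.23 to 26.8), near the 9.97 CPM of the other luminal cells of that pool, while Pipox was at 239.7 CPM and Tspan8 at 282 CPM in the same 20 cells.

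The genes called higher that followed Tspan1 included proteins of the actin skeleton and of signalling. Lmod1, an actin-nucleating protein of smooth muscle, was at 145, 50.6, 185 and 134 CPM in members of WT, WT-HU, B2 and B2-HU against 3.51 to 7.05 CPM in other luminal cells. It rose by 4.35 ± 0.15 on the log2 scale (edgeR adjusted p = 6.73e-07; within pools 2.80). Limch1, which activates non-muscle myosin, was at 98.8, 45.7, 76.9 and 83.2 CPM against 3.67 to 5.08 CPM, a log2 difference of 4.08 ± 0.17 (within pools 2.90). Pik3r3, a regulatory subunit of PI 3-kinase, was at 38.1 to 51.7 CPM against 5.90 to 7.06 CPM. Plcb4, a phospholipase C, was at 166, 98.6, 267 and 186 CPM against 20.6 to 25.4 CPM. Rragd, a GTPase of nutrient signalling at the lysosome, was at 25.05 to 64.3 CPM against 3.68 to 4.76 CPM. Their log2 differences were 2.85, 2.84 and 3.05, and 1.69, 2.23 and 2.07 within pools, each called in both fits. In all of these genes WT-HU, the library with the fewest members, had the lowest level in members.

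Genes of epithelial transport, metabolism and transcription were also among the 15 genes with the largest differences. Pigr, the receptor that carries antibodies across epithelium into milk, was at 363 CPM in WT members, 74.1 in WT-HU, 130 in B2 and 113 in B2-HU against 25.2, 9.58, 14.4 and 10.4 CPM in other luminal cells. It rose by 3.26 ± 0.14 on the log2 scale (edgeR adjusted p = 1.67e-06; within pools 2.73), and in WT members it was at 696 CPM under tag 2 and 275 CPM under tag 4. Tbx3, a T-box transcription factor needed for mammary gland formation, was at 78.3, 45.7, 109 and 78.7 CPM against 6.43 to 7.88 CPM, a log2 difference of 3.33 ± 0.15 (within pools 2.05). Ckb, the brain form of creatine kinase, was at 117, 124, 139 and 141 CPM against 12.6 to 18.9 CPM (log2 difference 2.95 ± 0.09, within pools 1.69). Cyb5r2, a cytochrome b5 reductase, was at 21.9 and 17.97 CPM in WT and WT-HU members and 73.6 and 77.8 CPM in B2 and B2-HU members, against 3.30 to 5.70 CPM. Gstm2, a glutathione transferase, was at 51.7 to 81.7 CPM against 7.38 to 10.5 CPM. Slc25a34, a mitochondrial carrier, Grrp1 and Ina, a neuronal intermediate filament protein, rose by 2.94, 2.75 and 2.63 on the log2 scale. Csprs rose by 3.05, but it belongs to a family of near-identical copies, so its counts are uncertain. All 15 genes were called within pools as well.

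**Figure D4:**
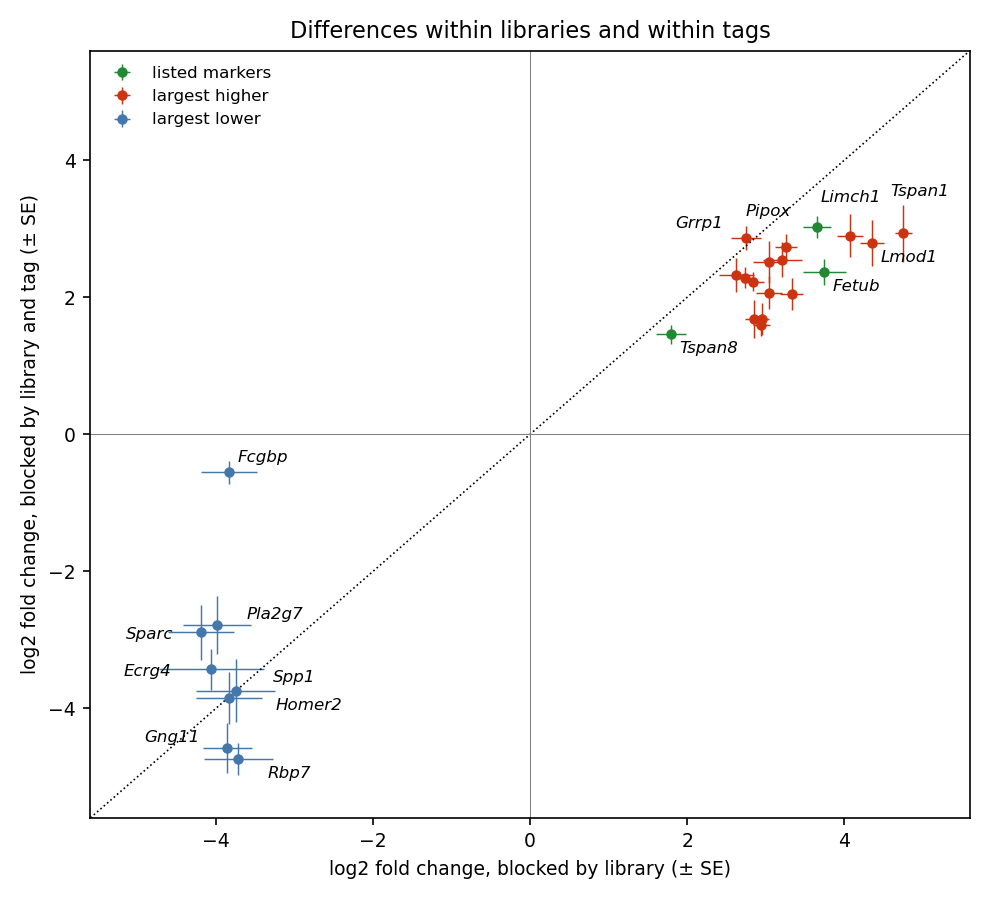
Log2 difference between members and other luminal cells with the library as block (horizontal axis) and within antibody tag pools (vertical axis), ± SE, for the 3 listed markers and the genes with the largest differences that were tested in both. The higher genes lie below the dotted line of equality except Grrp1, and Fcgbp moves from -3.83 to -0.56.

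Of the 10 genes with the largest falls, Rbp7, a cell protein that binds vitamin A, and Spp1, the secreted phosphoprotein osteopontin, were the most abundant in other luminal cells. Rbp7 was at 116 CPM in WT members, 399.7 in WT-HU, 46.4 in B2 and 43.0 in B2-HU against 1231, 1397, 1217 and 886 CPM. It fell by 3.72 on the log2 scale (SE 0.44, edgeR adjusted p = 0.000241) and within pools by 4.74. Spp1 was at 148, 491, 33.9 and 22.7 CPM in members against 1031, 1958, 973 and 734 CPM, and fell by 3.75 by library and 3.74 within pools. By library the members of WT and WT-HU had more of both genes. Within the pools Rbp7 was at 29.3 and 41.6 CPM in the members of tags 2 and 4 of WT, 139 and 68.8 CPM in those of WT-HU, 26.9 CPM in tag 2 of B2 and 16.98 CPM in tag 2 of B2-HU. Spp1 was at 40.0 and 109.9 CPM in tags 2 and 4 of WT, 50.2 CPM in the 20 members of tag 2 and 1057 CPM in the 22 members of tag 4 of WT-HU, 24.4 CPM in tag 2 of B2 and 20.3 CPM in tag 2 of B2-HU. Gng11, a G protein subunit, was at 4.30 to 21.2 CPM against 101 to 116 CPM, and Homer2, a scaffold protein, at 0.676 to 6.73 CPM against 31.5 to 37.3 CPM. Ecrg4, a secreted peptide precursor, was at 42.3, 196, 9.40 and 15.0 CPM against 463 to 583 CPM, Pla2g7, which breaks down platelet-activating factor, at 0.472 to 5.66 CPM against 24.6 to 33.2 CPM, and Slc16a3, a lactate transporter, at 1.53 to 4.90 CPM against 21.6 to 34.0 CPM. Gng11, Homer2, Ecrg4 and Pla2g7 were called lower within pools too, and Slc16a3 was not tested there.

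Fcgbp, a mucin-like secreted protein, differed between the fits. It was at 89.4, 50.1, 24.2 and 13.1 CPM in members against 694, 305, 582 and 319 CPM in other luminal cells and fell by 3.83 on the log2 scale (SE 0.35, edgeR adjusted p = 6.40e-05), but within pools by 0.56 (SE 0.17, adjusted p = 0.0371). In other luminal cells it was at 321.9 to 883 CPM under tags 1 and 3 and at 8.22 to 59.1 CPM under tags 2 and 4, so most of the difference by library lay between pools.

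Markers of other cell types differed as well. Of the 12 basal and myoepithelial markers tested, 9 were called lower, against 8.67% of all genes, none higher, and the median log2 difference was -2.27 (within pools -1.51, with 5 of 9 called lower, against 368 of 10118 genes). No marker of this list was at 0 in the members of all libraries together, although Cnn1 was at 0 in WT-HU members. Their summed level was 95.2, 96.9, 50.6 and 56.5 CPM in members and 315 to 411 CPM in other luminal cells. Sparc, a matrix protein and the most abundant of them, was at 12.5, 15.8, 4.06 and 2.12 CPM against 93.5 to 135 CPM, and Myl9, a contractile light chain with the largest fall of all named genes, was at 1.07 to 1.54 CPM against 15.7 to 35.5 CPM. Acta2, smooth muscle actin, was at 3.20 to 10.2 CPM against 46.6 to 88.0 CPM. When members and other luminal cells were both held under 50 CPM of Krt5, Trp63, Acta2 and Myl9 and under 50 CPM of Esr1, Pgr and Foxa1, an alternative chosen after seeing the data, Sparc fell by 2.34 (edgeR adjusted p = 0.00032) in place of 4.19, Lgals7 fell by 1.85 in place of 2.47, and Myl9, which that limit uses, differed by -0.76 in place of -4.22 (adjusted p = 0.232). In that comparison 417 of the 492 higher and 892 of the 1208 lower genes were called again. The part of basal cell RNA in the other results was not tested.

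Markers of stromal cells were near 0. Of 8 fibroblast markers 5 were tested and 3 called lower (Col1a1, Dcn and Fn1), their sum was 5.44 to 8.41 CPM in members and 8.58 to 21.8 CPM in other luminal cells, and Col3a1 and Lum were at 0 in members. Of 5 endothelial and 7 immune cell markers 1 each was tested and neither was called (Pecam1, log2 difference 0.45, adjusted p = 0.345, and Cd68, -0.57, adjusted p = 0.0671). The sums were no more than 1.68 and 2.18 CPM in members, and Cdh5, Kdr, Tek and Emcn, and Ptprc, Cd3e, Lyz2 and Itgam, were at 0.

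HR+ luminal markers went in both directions. Of 11 tested, Pgr, Foxa1 and Fxyd2 were called higher, against 3.53% of all genes, and Ptn, Ly6a, Cited1 and Esr1 lower, against 8.67%. The median log2 difference was -0.60 (within pools -0.10, with none higher and 2 of 7 lower, against 185 and 368 of 10118 genes). Prlr, the prolactin receptor and the most abundant of them, was at 94.8 to 106 CPM in members and 82.8 to 89.5 CPM in other luminal cells, a difference of 0.09 (adjusted p = 0.344). Pgr, the progesterone receptor, was at 3.97, 7.08, 7.44 and 9.21 CPM against 1.52 to 2.09 CPM and rose by 1.85 (edgeR adjusted p = 0.000548), but within pools its difference was -0.27 (adjusted p = 0.761). Foxa1, a pioneer factor of HR+ cells, was at 5.99 to 11.5 CPM against 1.88 to 4.22 CPM and rose by 1.57, with 0.01 within pools (adjusted p = 0.993). Fxyd2 rose by 1.26, with 0.94 within pools (adjusted p = 0.101). The summed list was at 166 to 176 CPM in members and 194 to 206 CPM in other luminal cells. Areg was used in the choice and is not counted here.

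Of the 12 HR- luminal (alveolar progenitor) markers tested, Lalba, Aldh1a3, Mfge8 and Cd14 were called lower, against 8.67% of all genes. None was called higher (median -0.75, within pools -0.46). Wfdc18 and Cited4 of this list were higher by 0.88 and 0.63, under the 2-fold limit (edgeR adjusted p = 0.000362 and 0.00184, within pools 0.53 and 0.63). Lalba was at 173 CPM in WT members, 80.0 in WT-HU, 74.1 in B2 and 45.9 in B2-HU against 382, 604, 419 and 773 CPM, and fell by 2.76 on the log2 scale (SE 0.39, edgeR adjusted p = 0.000636; within pools by 1.99). Aldh1a3, a retinaldehyde dehydrogenase, was at 2.95 to 17.97 CPM against 21.3 to 33.7 CPM. Mfge8, a milk fat globule protein, fell by 1.24, and within pools by 0.54 (adjusted p = 0.00292). Cd14, the lipopolysaccharide co-receptor, fell by 1.16 (adjusted p = 0.0358) and differed by -0.40 within pools (adjusted p = 0.283). Its call was lost without WT (-1.37, adjusted p = 0.0670), without B2 (-0.71, adjusted p = 0.113) and without B2-HU (-0.93, adjusted p = 0.129). Csn3, kappa-casein, differed by -0.40, under the 2-fold limit, and by 0.43 within pools (adjusted p = 0.0228), so its direction depended on the fit. It was at 16772 CPM in members and 20287 CPM in other luminal cells on average over libraries. Among luminal keratins and junction genes, Krt19, Krt7, Muc1 and Cldn4 were called lower of 10 tested, against 8.67% of all genes, and none higher. Cldn3 and Cldn7 were higher by 0.30 and 0.38, under the 2-fold limit (edgeR adjusted p = 0.0190 and 0.00315, within pools 0.27 and 0.06). Krt19 was at 25.7 to 95.8 CPM against 245 to 278 CPM and Krt7 at 19.4 to 31.0 CPM against 102 to 114 CPM, and both were called within pools.

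Most milk genes were lower in members. Of 10 milk protein and milk fat globule genes tested, 8 were called lower against 8.67% of all genes. Their median log2 difference was -2.42 against 0.00 over all genes tested (within pools -1.13, with 4 of 8 called lower, against 368 of 10118 genes). Csn1s1, alpha-casein, was at 316, 724, 73.4 and 146 CPM in members against 1927, 1563, 1200.5 and 1059 CPM and fell by 2.78 (SE 0.39, edgeR adjusted p = 0.000639; within pools by 2.54). Muc15 fell by 2.08 (within pools by 1.59) and Xdh, which coats milk fat, by 1.40, with -0.68 within pools (adjusted p = 0.0567). Plin2, a lipid droplet protein, and Csn3 did not reach a 2-fold difference, and Wap and Glycam1 were at 0 in members. Lalba, Mfge8 and Csn3 are also in the HR- list.

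Lipid and sterol genes differed less. Of 20 lipid synthesis genes, Thrsp was called higher and Fads1 and Fads2 lower, against 3.53% and 8.67% of all genes. The median was -0.08 (within pools 0.24, with none higher and 3 lower, against 185 and 368 of 10118 genes). Thrsp, a regulator of milk fat synthesis, was at 113 CPM in WT members, 256.5 in WT-HU, 283 in B2 and 409 in B2-HU against 51.0, 122, 75.2 and 94.5 CPM, and rose by 1.45 (edgeR adjusted p = 0.000129), within pools by 0.66. The desaturase Fads1 was at 2.52 to 13.6 CPM against 46.5 to 59.3 CPM and fell by 3.43 (within pools by 2.75). None of 13 cholesterol synthesis genes reached the 2-fold limit, although 10 had an adjusted p under 0.05 (37.2% of all genes tested). Their median was 0.61 (within pools 0.76, with 4 called higher, against 185 of 10118 genes). Msmo1, a sterol oxidase, was at 50.8 to 74.1 CPM against 24.8 to 37.9 CPM, a difference of 0.96 (adjusted p = 0.000272; within pools 0.76).

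Among 17 fluid and ion transport genes, Slc12a2 and Slc34a2 were called higher, against 3.53% of all genes, and Car2 and Scnn1a lower, against 8.67%. The median was 0.18 (within pools 0.28, with 3 higher and none lower, against 185 and 368 of 10118 genes). Slc12a2, the sodium-potassium-chloride cotransporter of secreting epithelia, was at 519 CPM in WT members, 527 in WT-HU, 1206 in B2 and 898 in B2-HU against 170 to 194 CPM in other luminal cells, and rose by 1.87 ± 0.16 (edgeR adjusted p = 5.40e-05; within pools 1.20). Slc34a2, a phosphate transporter, was at 6.58 to 14.7 CPM against 3.00 to 5.62 CPM (1.02, within pools 1.42), and lost its call without WT (0.54, adjusted p = 0.0866) and without WT-HU (1.002, adjusted p = 0.0523). Aqp5, a water channel, differed by 0.67 (within pools 1.02, called), at 3295 CPM in members and 1894 CPM in other luminal cells on average. Scnn1a lost its call without B2 (-0.80, adjusted p = 0.0664). Car2, a carbonic anhydrase, was at 2.09 to 8.17 CPM against 23.8 to 31.7 CPM and was not tested within pools.

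Of 18 tetraspanins tested, Tspan1, Tspan15 and Tspan13 were called higher, against 3.53% of all genes, and none lower (median 0.09). Tspan13 was at 98.6 to 125.1 CPM against 40.4 to 46.8 CPM and Tspan15, a partner of the protease Adam10, at 57.2 to 77.5 CPM against 18.5 to 32.0 CPM, and both were called within pools. Cd9 and Cd81, abundant tetraspanins, differed by -0.11 (adjusted p = 0.38) and 0.00 (adjusted p = 0.996). Of 10 apical and brush border genes, Prom1, a protein of membrane protrusions, was called higher at 14.7 to 36.2 CPM against 3.54 to 5.22 CPM (2.16, within pools 1.88), and Anpep (within pools -0.48) and Ggt1 lower. Over all genes tested, 3.53% were called higher and 8.67% lower. In the list of peroxisome and amine oxidation genes, which holds Pipox itself, Sardh, the mitochondrial sarcosine dehydrogenase, was called lower (-1.09, within pools -0.65) and none of the 17 tested genes higher, although 11 had an adjusted p under 0.05 (37.2% of all genes tested). Crot, a carnitine acyltransferase of peroxisomes, differed by 0.99 by library (edgeR adjusted p = 2.39e-05) and was called higher within pools (1.33, adjusted p = 6.86e-05). Sardh was at 3.81 to 10.9 CPM in members and 9.63 to 11.6 CPM in other luminal cells, with overlap, and fell short of 2-fold without B2 (-0.89) and without B2-HU (-0.99). Ggt1 lost its call without B2 (adjusted p = 0.0595) and without B2-HU (adjusted p = 0.120).

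Interferon-stimulated and MHC class I genes were mostly higher, with few past 2-fold, while the MHC class II list had a median of -0.28. Of 26 interferon-stimulated genes, 22 had an adjusted p under 0.05 (37.2% of all genes tested). Ifi27l2a, Ifit3, Igtp, Stat2 and Rsad2 were called higher, against 3.53% of all genes, and Cxcl10 lower, against 8.67%. The median was 0.73 (within pools 0.49, with 1 called higher, against 185 of 10118 genes). Ifit3 was at 503 CPM in WT members, 339 in WT-HU, 751 in B2 and 1020.3 in B2-HU against 228 to 249 CPM in other luminal cells, and rose by 1.25 ± 0.19 (edgeR adjusted p = 0.00106), within pools by 0.83 (adjusted p = 5.08e-05) and without B2-HU by 0.99. Ifi27l2a was at 904, 346, 1372 and 1540.0 CPM against 292 to 344 CPM. Cxcl10, a chemokine, was at 0.00 to 1.77 CPM in members against 0.641 to 11.1 CPM and its direction depended on the cells compared: without tag 4 its difference was 0.43. Of 15 MHC class I and peptide loading genes, H2-Q6, H2-Q7, H2-Q4 and B2m were called higher, against 3.53% of all genes (median 0.84, within pools 0.71 with 1 called). B2m, the shared light chain, was at 3707, 3068, 5381 and 6222.5 CPM against 1940.1 to 2231 CPM and stood at the limit (1.001, adjusted p = 0.00149, and 0.82 without B2-HU and 0.90 without B2). The H2-Q genes are near-identical copies whose counts are uncertain, and H2-Q4 differed by 0.90 without B2-HU. Of 4 MHC class II genes tested, Ciita was called higher at 0.00 to 2.45 CPM, against 3.53% of all genes, and H2-Ab1 lower, against 8.67%. H2-Ab1 was at 68.1 CPM in B2 members and 5.55 to 10.2 CPM in members of the other libraries. Ciita lost its call without WT (adjusted p = 0.107) and without B2-HU (adjusted p = 0.0931).

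**Figure D5:**
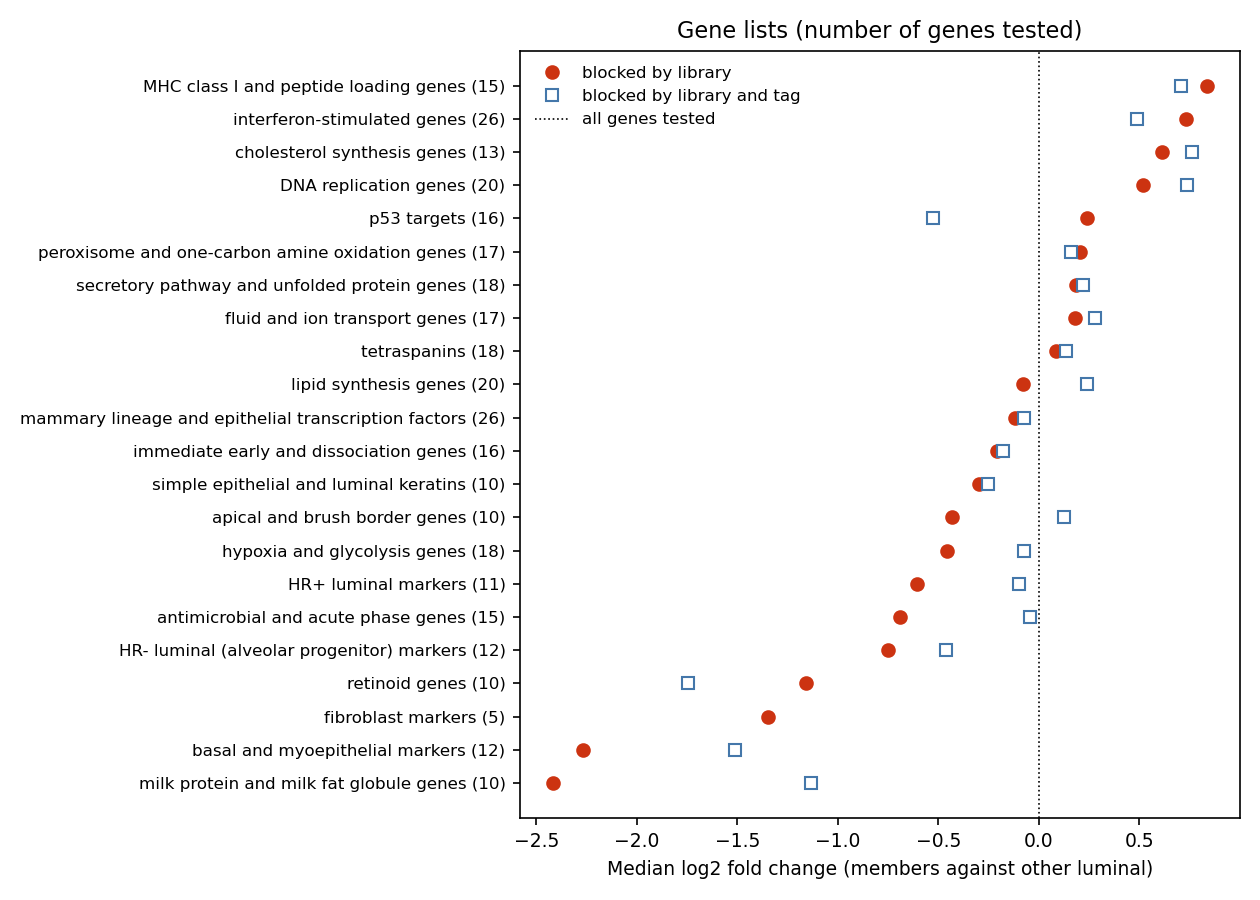
Median log2 difference of each gene list between members and other luminal cells (horizontal axis), with the library as block (filled) and within antibody tag pools (open), for lists with at least 5 genes tested (number in parentheses), and the median of all genes tested as a dotted line. With the library as block, milk and basal genes lie lowest (-2.42 and -2.27) and MHC class I and interferon-stimulated genes highest (0.84 and 0.73). Within pools, retinoid and basal genes lie lowest (-1.75 and -1.51) and cholesterol and DNA replication genes highest (0.76 and 0.74). The p53 targets are among the lists that change sign between the fits.

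Of 16 p53 targets, Gdf15 was called lower, against 8.67% of all genes, and none higher. The median was 0.24 by library and -0.53 within pools, where 2 were called lower, so the list changed sign. Cdkn1a, the p21 inhibitor of the cell cycle, was at 291, 355, 509.5 and 501 CPM in members against 158 to 266 CPM, a difference of 0.87 (adjusted p = 0.00121), but -0.51 within pools (adjusted p = 0.0659). Gdf15 fell by 1.79 by library and by 5.11 within pools (adjusted p = 0.000600). In WT-HU it was higher in members, at 7.08 CPM against 3.44 CPM, and in WT, B2 and B2-HU it was lower. By library it lost its call without any 1 library of WT (-1.70, adjusted p = 0.141), B2 (-1.23, adjusted p = 0.152) or B2-HU (-1.46, adjusted p = 0.171). Of 20 DNA replication genes, Rrm2, E2f1 and Cdc6 were called higher, against 3.53% of all genes, and none lower. Of the 20, 13 had an adjusted p under 0.05 (37.2% of all genes tested). The median was 0.52 (within pools 0.74, with 2 higher, against 185 of 10118 genes). Rrm2, a ribonucleotide reductase subunit, was at 10.6 to 17.0 CPM against 4.83 to 6.09 CPM and differed by 0.85 (adjusted p = 0.0129) without WT. E2f1 differed by 1.02 within pools (adjusted p = 0.110) and by 0.93 without WT and Cdc6 by 0.84 without B2 and 0.97 without WT-HU, each under 2-fold in these fits without a library. Of 18 hypoxia and glycolysis genes, Ndufa4l2, Adm and Car9 were called lower, against 8.67% of all genes, and none higher. The median was -0.46 (within pools -0.07, with 2 lower, against 368 of 10118 genes). Car9 was at 106, 94.7, 245 and 93.6 CPM in members against 202 to 273 CPM, and its difference was -0.17 within pools (adjusted p = 0.47). Car9 was under 2-fold without WT (-0.92), WT-HU (-0.99) or B2-HU (-0.94), and Adm lost its call without WT (adjusted p = 0.0797) and without B2-HU (adjusted p = 0.0567). Of 16 immediate early and dissociation genes, 1 was called higher, against 3.53% of all genes, and none lower. It was Atf3, a stress-response factor, at 28.1 to 54.0 CPM against 10.8 to 21.5 CPM (1.07, without WT 0.99, and within pools 0.01, adjusted p = 0.988). Within pools 2 genes of this list were called lower, against 368 of 10118 genes, and none higher.

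Of 15 antimicrobial and acute phase genes tested, Pigr was called higher, against 3.53% of all genes, and Ltf, C3, Hp and Lbp lower, against 8.67%. The median was -0.69 (within pools -0.04, with 1 higher and 4 lower, against 185 and 368 of 10118 genes). Ltf, the iron-binding milk protein lactoferrin, was at 2.40 to 13.6 CPM against 28.9 to 81.6 CPM and fell by 3.06 (edgeR adjusted p = 2.07e-05, within pools by 2.62). Of 10 retinoid genes, 5 were called lower (Rarres1, Rbp7, Crabp2 and Aldh1a3 among them), against 8.67% of all genes, and none higher (median -1.16, within pools -1.75, with 5 of 7 called lower, against 368 of 10118 genes). Crabp2, which brings retinoic acid to its receptors, was at 2.95 to 8.17 CPM against 38.6 to 52.2 CPM and fell by 3.45 (within pools by 3.44). Of 26 transcription factors of the mammary lineage tested, Creb3l4 and Runx2 were called lower, against 8.67% of all genes, and none higher. Both were under 6 CPM in other luminal cells. The median was -0.12 (within pools -0.08, with 1 higher and 3 lower, against 185 and 368 of 10118 genes). Elf5 differed by -0.61 (edgeR adjusted p = 0.000861, within pools -0.53, adjusted p = 0.1075). Factors of liver, gut and kidney were largely not detected. Of 19, 4 were tested and 10 were at 0 in members (Hnf4a and Hnf4g among them). Of the 4, Foxa3 was called lower at under 1 CPM, against 8.67% of all genes, a call lost without B2-HU (adjusted p = 0.0731). None of 18 secretory pathway genes was called, with 8 at an adjusted p under 0.05 (37.2% of all genes tested) and a median of 0.19 (within pools 0.22, with 1 called lower).

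Tmigd1 (chr11:76902159-76916587) and Sez6 (chr11:77930800-77979048) lie on the same chromosome of GRCm38 with 1028.6 kb between their starts, and a gap of 36.7 kb separates Pipox from Sez6, so the expressed genes around them were examined, the 10 nearest on each side by their lower coordinate. Of the 31 genes tested besides the markers, 1 was called higher and 1 lower, against 3.53% and 8.67% of all genes tested. Cpd, a carboxypeptidase separated from Tmigd1 by a gap of 55.1 kb, was at 678 CPM in WT members, 696 in WT-HU, 1067 in B2 and 927 in B2-HU against 328 to 402 CPM in other luminal cells, and rose by 1.06 ± 0.11 (edgeR adjusted p = 0.000106; within pools 1.14; without B2-HU 0.96). Fam57a was called lower at 1.09 to 2.90 CPM against 3.45 to 3.58 CPM, and lost its call without B2 (adjusted p = 0.0728). Blmh, the nearest gene to Tmigd1, differed by -0.19 (adjusted p = 0.0607), Phf12, on the far side of Sez6 from Pipox, by 0.20 (adjusted p = 0.132), and Myo18a, between Tmigd1 and Pipox, by 0.14 (adjusted p = 0.196). On chromosome 11 as a whole, 38 of 1135 genes (3.35%) were called higher.

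Because the members were chosen on the sum of both genes, each gene was also examined in cells chosen on the other alone (at least 100 CPM against 0 CPM). In cells chosen on Tmigd1, Sez6 was at 234 CPM in WT, 68.1 in WT-HU, 231 in B2 and 344 in B2-HU, against 11.9, 5.37, 9.60 and 13.8 CPM in cells without Tmigd1. It was higher by 4.21 ± 0.14 on the log2 scale and within pools by 2.04 ± 0.26. In cells chosen on Sez6, Tmigd1 was at 112, 47.6, 484 and 273 CPM against 5.54, 4.90, 20.9 and 7.63 CPM, higher by 4.30 ± 0.23 and within pools by 1.82 ± 0.39. The pools of these fits were those with at least 20 cells on each side of that choice, 5 for Tmigd1 and 7 for Sez6. Both genes define the set and were picked with results of these data known, so these values are a description with no test. Fetub was at 85.2, 64.6, 307 and 226 CPM in cells chosen on Tmigd1 and at 72.3, 25.6, 294 and 209 CPM in those chosen on Sez6, so in either choice the Brca2mut/WT libraries had the higher level.

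The levels of the chosen genes also varied from pool to pool. Tmigd1 was at 539 CPM in tag 2 members of B2 and 301 in those of B2-HU, and at 219 CPM under tag 2 and 113 CPM under tag 4 of WT. Fetub was at 314 and 227 CPM in the former and at 39.4 and 107 CPM in the latter. Pipox was at 203 CPM in tag 2 of B2, 354 CPM in tag 2 of B2-HU and 367 and 425 CPM in tags 2 and 4 of WT. In tags 2 and 4 of WT-HU it was at 239.7 and 136 CPM. Ckb was at 127 CPM in both WT pools, 141 and 144 CPM in tag 2 of B2 and B2-HU, and 70.6 and 237 CPM in tags 2 and 4 of WT-HU. Each pool is 1 value with counting error only, so no difference between pools was tested.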

How the data were processed

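Organoid cells were captured with the 10x Chromium version 3 kit, 1 library per condition. The authors deposited count matrices of UMIs for 32285 genes and 4 antibody tags per library (302135155 UMIs in WT, 258821284 in WT-HU, 243430259 in B2 and 258118001 in B2-HU); per the submitters' processing notes Cell Ranger 6.0.2, Seurat 4.0 and R 4.1.3 were used, and the build was mm10. The file header names another Cell Ranger version. No cell annotation was used here. Members and gene lists were chosen with earlier results of these data known. Counts of members and other luminal cells were summed per library and tested with edgeR 4.0.16 (R 4.3.3) quasi-likelihood with TMM scaling, a low-count filter and the library as block, with Benjamini-Hochberg adjustment. The p-values of this fit measure the spread between these libraries only, and those within pools the spread over 6 pools, some of the same library. Named genes were the 5 markers, the 15 genes called higher and 10 called lower with the largest differences, the same direction in each library and at least 20 CPM, up to 4 genes of each list with the largest differences, the 3 most abundant markers of each other cell type, and the neighbours on chromosome 11. Other list genes (such as Csn3, Aqp5, Muc15, Xdh, Cd9, Cd81, Stat2 and Rsad2) were named after their values were seen. The fit within pools used the tag of cells with 1 tag. Alternatives included DESeq2 1.42.0, library totals, no filter, other thresholds, thinning to 5000 UMIs and leaving out a library or a tag. The test planned for each of Tmigd1 and Sez6 in cells chosen on the other is given as values only. Intervals cover counting error only. No doublet caller was run, and tables were made with Python 3.11.15 and figures with matplotlib 3.10.9.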

Additional observations from a re-analysis of the deposited data

Results flagged for a closer look

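Cd14 in WT-HU drew attention because it went against the other libraries. It was at 162 CPM in WT-HU members and 122 CPM in other luminal cells, a log2 ratio of 0.40, whereas in WT (119 and 177 CPM), B2 (26.9 and 131 CPM) and B2-HU (31.9 and 101 CPM) it was lower in members. The difference between libraries was not tested.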

How the results depend on the processing

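With 1 library per condition there is no test between conditions, and the pools of the tags, whose key was not given, are confounded with membership. Members and other luminal cells were compared within each library, but the 4 conditions could not be paired with each other, since the labels give no shared replicate numbers. The counts of genes called higher (492) and lower (1208) were 150 and 290 when cells were thinned to 5000 UMIs, 185 and 368 within pools, where fewer genes were tested, and 308 and 711 without tag 2. At 5000 UMIs the choice of members rests on a single UMI. Leaving out each library gave 407 to 591 genes higher and 997 to 1260 lower, log2 differences of 4.10 to 4.36 for Sez6 in cells chosen on Tmigd1, and 4.04 to 4.54 for Tmigd1 in cells chosen on Sez6. Library totals in place of TMM scaling moved the share of calls that were higher from 28.9% to 37.9%. The share of members moved with the thresholds. In WT it was 3.50% at 300 CPM, 10.5% with no upper gene limit and under 10% mitochondrial UMIs, 11.6% after thinning, and 9.92%, 4.51%, 8.91% and 3.38% without tags 1, 2, 3 and 4. In WT-HU it was 0.758%, 3.23% and 5.16% under the first 3 of these, 2.97% without tag 3 and 1.52% without tag 4. In B2 it was 19.2%, 26.4% and 25.6%, 19.3% with at least 3 UMIs, and 30.2%, 5.36%, 30.3% and 23.95% without tags 1 to 4. In B2-HU it was 10.6%, 23.4% and 18.5%, 11.7% with at least 3 UMIs, and 21.8%, 3.80% and 20.6% without tags 1 to 3. Pgr turned to -0.27 within pools, and Cxcl10 to 0.42 after thinning, 0.48 in cells with Elf5 or Kit and 0.43 without tag 4. The cause was not tested. Of 88 named genes that were called, 32 of 81 with a value lost their call after thinning and 16 of 67 within pools.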
